A study of Mus musculus with 2 samples.

Results

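The genes described here are 10 core genes of the circadian clock, namely Arntl, Clock, Per1, Per2, Per3, Cry1, Cry2, Nr1d1, Nr1d2 and Dbp. They were taken by name from a list of 21887 protein-coding genes on chromosomes 1 to 19, X and Y, and all 10 were found. Chromatin accessibility was read by ATAC-seq, in which the transposase Tn5 cuts and tags open DNA, so that each sequenced read end marks an insertion and the density of insertions follows how open the DNA was. The wild-type group was 1 library from the neural retina of adult C57BL/6 mice, and the Gabra3 knockout group was 1 library from the same tissue, stage and strain, and the design names littermates. Gabra3 codes for a subunit of GABA-A receptors, the chloride channels of inhibitory synapses. The labels name no allele, age in weeks, sex, number of retinas or time of day of collection, so the phase of the clock in each animal is unknown. Each library came from 20000 nuclei of frozen tissue, sequenced as single reads of 75 bp.

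The clock is a feedback loop. The protein of Arntl (also called BMAL1) pairs with that of Clock and binds E-boxes, short DNA motifs near the Per, Cry, Nr1d and Dbp genes, and switches those genes on. PER and CRY proteins then block the pair, while the nuclear receptors of Nr1d1 and Nr1d2 (REV-ERB alpha and beta) repress Arntl through ROR elements, and DBP activates genes with D-boxes, Per genes among them. The retina runs such a loop of its own, which times dopamine and melatonin release and the gain of visual responses.

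The wild-type library held 7635799 insertions and the knockout library 7646373, counted at a mapping quality of at least 10 and once per position and strand. Of autosomal insertions 19.6% and 18.8% fell into the 36817 open regions that the summed libraries gave. The tissue label was checked against markers: 9 of 10 rod genes had at least 50 insertions at the gene end with the transcription start (981 wild-type and 833 knockout in all). Of all 21887 genes, 9186 did. The other retinal lists reached this less often: 0 of 5 cone genes (53 and 65 in all), 2 of 5 bipolar, 1 of 6 amacrine and ganglion and 2 of 4 Muller glia genes. The check thus rests on rod genes. The 9 liver, muscle and skin markers held 53 and 60 together, with Alb and Krt14 at 0 in both. Retinal pigment epithelium markers held 231 and 219, mostly Mitf (118 and 124) and Pmel (104 and 88), while Rpe65 held 1 and 2. Oligodendrocyte markers held 95 and 104, mostly Mbp (92 and 97). The part of such cells in the results was not tested. The body of Gabra3 on chromosome X held 126 and 121 insertions, so the locus gave no check of the genotype label. With 1 library per genotype no test between genotypes was possible and no p was computed. Every ratio compares those libraries, not the genotypes, and intervals are exact 95% intervals (Clopper-Pearson for ratios, Poisson for counts) that cover counting error only. In whole tissue, a change in the cells that carry an open site cannot be told apart from a change in how open it is per cell.

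Short stretches of promoter are shown first. All but that of Nr1d2 hold matches to the motif types through which the loop is known to regulate itself. The Nr1d2 stretch is shown because its start had the most insertions of the 10 genes. Sequences were read from RefSeq (GRCm38.p6), which listed 13 promoters of 300 bases, 250 before and 50 from the transcript start, for 9 of the 10 genes. No promoter was listed for Per2. The letters searched, on both strands, were CACGTG (E-box), CACGTT (a weaker form called E-prime box), TTATGTAA and TTACGTAA (D-box), TAGGTCA and TGGGTCA (ROR element) and TGACGTCA (cAMP response element, CRE). On the gene's strand an E-prime box can also read as AACGTG. No matches in these promoters overlapped, and capitals mark the matched letters, read 5′ to 3′ on the strand of the gene.
Cry1: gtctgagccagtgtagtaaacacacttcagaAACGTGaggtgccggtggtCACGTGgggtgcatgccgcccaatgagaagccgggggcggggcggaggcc
Per1: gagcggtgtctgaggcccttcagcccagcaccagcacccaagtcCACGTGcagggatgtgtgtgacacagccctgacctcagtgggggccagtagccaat
Cry2: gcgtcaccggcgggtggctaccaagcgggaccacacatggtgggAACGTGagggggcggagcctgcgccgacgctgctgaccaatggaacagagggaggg
Nr1d1: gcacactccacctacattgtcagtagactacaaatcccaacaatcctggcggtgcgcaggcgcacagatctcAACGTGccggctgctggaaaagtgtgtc
Per3: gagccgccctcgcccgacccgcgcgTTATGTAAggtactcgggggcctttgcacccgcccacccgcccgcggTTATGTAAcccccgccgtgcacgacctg
Arntl: aggcagaaagTAGGTCAgggacggaggtgc
Nr1d2: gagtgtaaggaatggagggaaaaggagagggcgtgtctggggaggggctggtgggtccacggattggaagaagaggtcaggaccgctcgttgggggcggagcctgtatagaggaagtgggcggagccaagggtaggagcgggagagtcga

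The Cry1 stretch (chr10:85185065-85185164, minus strand) held an E-prime box whose first base lay 79 bp before the transcript start and an E-box 60 bp before it. In Per1 (chr11:69098739-69098838, plus strand) an E-box began 166 bp before the first listed start. Cry2 (chr2:92434180-92434279, minus strand) had an E-prime box 166 bp before its start, and Nr1d1 (chr11:98775378-98775477, minus strand) had one 28 bp before. The Per3 stretch (chr4:151044796-151044895, minus strand) carried 2 D-boxes with the same letters, 205 and 158 bp before the start. The ROR element of Arntl, the motif of the loop's repressive arm, began at base 31 of the transcript from the second listed start (chr7:113207531-113207560, plus strand). The Nr1d2 stretch (chr14:18239107-18239256, minus strand) is the 150 bp before the most accessible start of the 10 genes, and none of the searched letters occurred in its promoter, nor in those of Clock and Dbp.

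At least 1 of these motifs occurred in 6 of the 13 clock promoters (46.2%), which belong to 6 genes, and in 19.5% of 32851 promoters of the same length. E-boxes occurred in 2 clock promoters and in 7.15% of all, E-prime boxes in 3 and in 4.68%, D-boxes in 1 and in 1.06%, ROR elements in 1 and in 6.45%. None of the 13 listed clock promoters held the full CRE, which occurred in 1.79% of all. The outer end of Per1 in the gene table (chr11:69095108) and any promoter of Per2 lie outside these stretches and were not searched. The GC content of the clock promoters ran from 47.0% at the third listed start of Clock to 76.7% at its second, and 12 of the 13 were above the median of all promoters, 52.7%. Within 50 bp of the motifs, the libraries held 34 wild-type and 41 knockout insertions at the Cry1 E-box, 24 and 25 at that of Per1, and 25 and 26 at the ROR element of Arntl. Around the 8 matches the counts ran from 19 to 47, and every match lay within an open region. Only promoters at listed starts were searched, and the starts used all lay in open regions, so this does not set the motifs apart.

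The start of Nr1d2, which encodes REV-ERB beta, was the most accessible of the 10. Within 500 bp of its start lay 365 wild-type insertions (329 to 404) and 352 knockout insertions (316 to 391), rank 3 in each library among the 17492 genes with a listed start. Per2 was ranked against the same genes. The start of each gene is here the listed transcript start with the most insertions, and for Per2, for which no start was listed, the gene end with more insertions. Per2 came next with 290 and 256, then Arntl with 265 and 241. These 3 genes lay within the top 1% of starts by summed insertions, 4 of the 10 within the top 5% and 6 within the top 10%, while the median of all genes was 39.0 insertions summed.

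The cryptochromes, repressors that close the loop, came below these 3 together with Per3, Dbp and Clock. Cry2 had 167 and 179 insertions, Cry1 166 and 194, Per3 158 and 160, Dbp 135 and 134 and Clock 131 and 159. Per1, a repressor that light can induce, had 94 and 88 at its start. Nr1d1, which encodes REV-ERB alpha, had 89 and 83. These were the lowest by the starts used, but at its outer gene end Per1 held 214 and 205, more than either cryptochrome. Between neighbours in the order by starts, the Poisson intervals of Per2 and Arntl overlapped in each library, as did those of Per1 and Nr1d1. Those of Per1 also overlapped those of Clock and Dbp in the wild-type library, but not in the knockout library. Among Cry1, Cry2, Per3, Dbp and Clock every pair overlapped in both libraries, except Cry1 and Dbp in the knockout library (168 to 223 and 112 to 159). The interval of Nr1d2 lay above that of every other clock gene in both libraries. All windows have the same width, so these levels are per the same length.

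**Figure D1:**
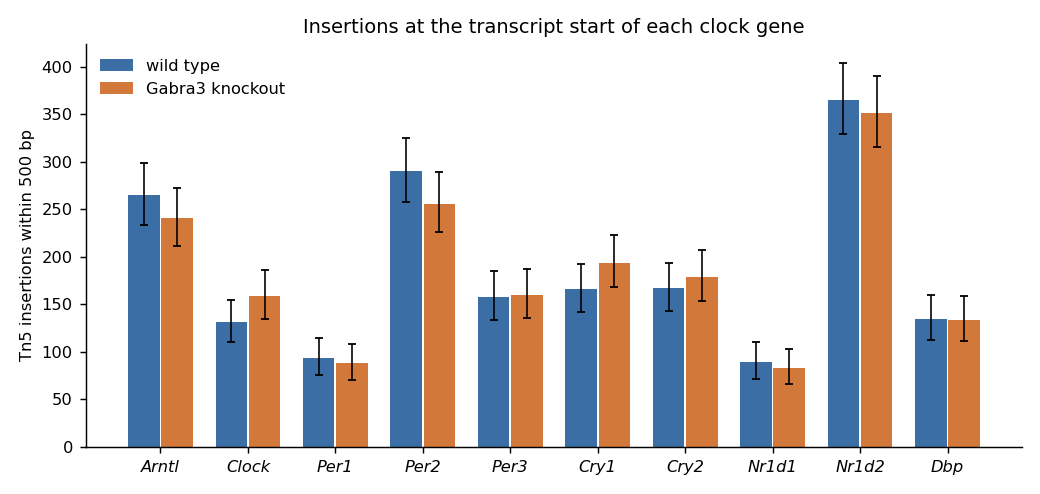
Insertions (vertical axis, counts) within 500 bp of the start of each clock gene in the wild-type (blue) and Gabra3 knockout library (orange), with exact 95% Poisson intervals as bars. Nr1d2 stands highest at 365 and 352, and Per1 and Nr1d1 lowest. Per1 is drawn at its first listed start, and its outer gene end held 214 and 205.

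Where the outer end of a gene in the gene table was used in place of a listed start, 3 genes gave other counts. Arntl spans chr7:113178471-113314126 on the plus strand, and its outer end held 5 and 8 insertions, against 265 and 241 at the listed start 29.0 kb further in. Clock (chr5:76209868-76305603, minus strand) held 28 and 23 at its outer end. The reverse was seen at Per1 (chr11:69095108-69109965, plus strand), whose outer end held 214 and 205 insertions, against 94 and 88 at the first listed start and 70 and 49 at the second. By summed insertions its outer end ranked 470 of 21887 gene ends (2.15%), while the start used ranked 4240 of 17492 listed starts (24.2%). The outer window of Per1 lay 2.73 kb from the nearest end of Vamp2, a SNARE gene of synaptic vesicles, where 25 and 31 insertions were counted. For the other genes the windows coincide or lie within 147 bp of each other. At the far end from the start, the 10 genes held between 1 and 16 insertions in each library.

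Several starts were split into separate peaks of insertions. Windows of 200 bp were moved across the 2000 bp either side of the start, with peaks of at least 40 insertions summed. Clock had a peak 10 bp before its start with 53 wild-type and 55 knockout insertions and another 840 bp after it with 61 and 53. At Nr1d2 a peak 70 bp before the start held 111 and 99, and one 590 bp inside the gene held 94 and 83. The second peak of Per1, 1120 bp after the first listed start, lay over its second listed start and held 41 and 26, against 62 and 55 at the first. For Dbp, the D-box activator, the nearest peak lay 330 bp before the start (67 and 69) and another 1090 bp before it (50 and 37). The 3-prime end of Car11, a carbonic anhydrase-related gene, lies 560 bp before the Dbp start, between these peaks.

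Nr1d1 was more open inside the gene than at its start. Its peak at the start held 58 and 51 insertions, and a peak 1360 bp inside the gene held 89 and 78. The open region around the inner peak (chr11:98773601-98774400) held 205 and 157 insertions over 800 bp, and that over the start (chr11:98775151-98775650) held 79 and 67 over 500 bp. The gene table gives no exons, so whether this region is intronic is not stated. The start is shared with Gm31862, a lncRNA gene that begins 34 bp away on the opposite strand, and ATAC-seq insertions cannot be assigned to either gene. At Clock, the lncRNA gene Gm7467 likewise begins 84 bp away on the opposite strand.

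**Figure D2:**
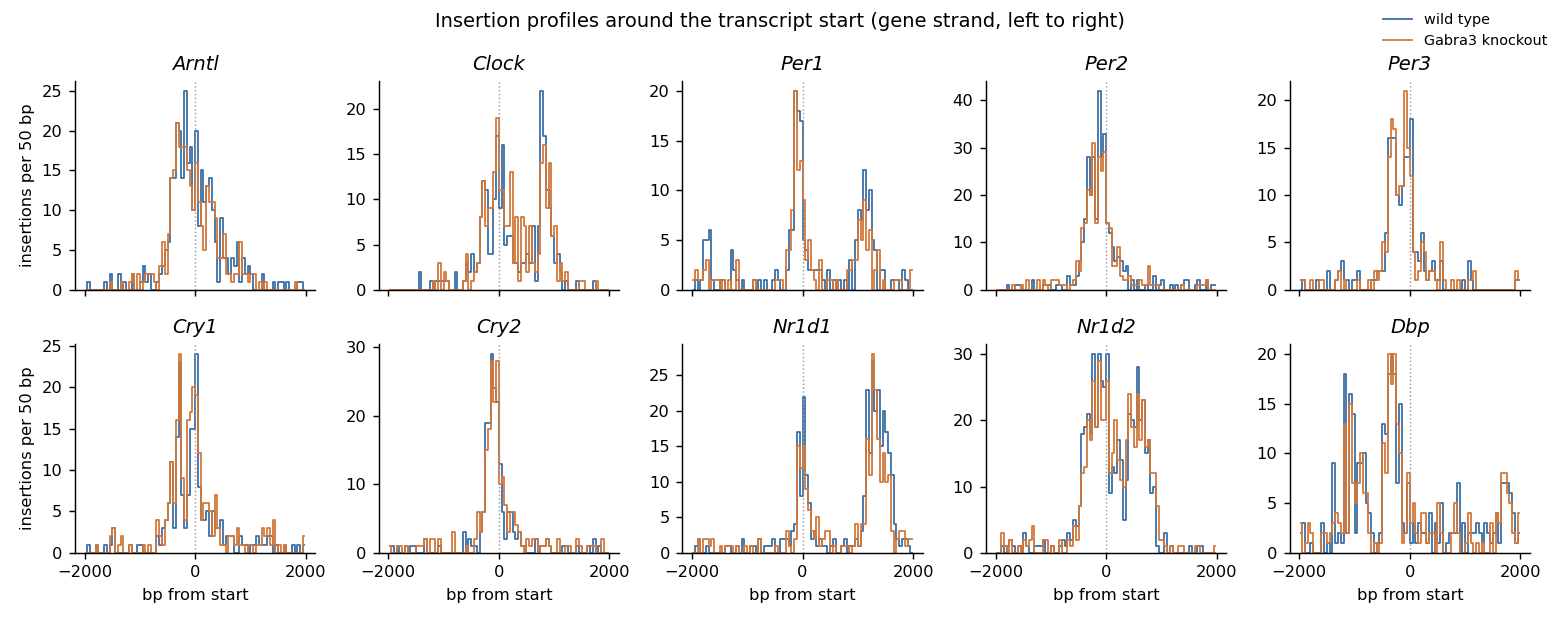
Insertions per 50 bp (vertical axis) by distance from the start in bp (horizontal axis, read along the gene strand, and for Per2 from outside the gene inwards) for the 10 clock genes, wild type in blue and knockout in orange. The lines of both libraries follow each other, with separate peaks in Clock, Per1, Nr1d1, Nr1d2 and Dbp.

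Of the 9 genes with a listed strand, 8 had more insertions before the start than after it. The share of all genes with such a split was not counted, so this is not shown to be particular to clock genes. At Dbp 83.6% of the summed insertions within 500 bp fell before the start, at Per3 75.5%, at Per1 74.7% and at Cry2 72.8%. Cry1 had 64.7%, Arntl 60.7%, Nr1d2 55.2% and Clock 54.5%. Nr1d1 was the one gene of the 9 below an even split, at 42.4%. For Per2 no strand was listed, and 77.7% lay outside the gene end used. In every gene the libraries lay on the same side of an even split, and their shares differed most at Per3, with 72.2% in wild type and 78.8% in knockout.

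Within the 10 genes and 5 kb either side, the summed libraries gave 40 open regions. All 10 starts lay in one, with a median width of 1075 bp, and 22 further regions lay inside a gene, with a median width of 350 bp. The starts had been picked as those with the most insertions, and the share of all genes' starts in an open region was not counted. Of the 40 regions 28 were also called in each library alone at equal depth, and 6 in neither alone. Over all 36817 regions these shares were 53.8% and 20.5%. Each of the 17 regions with at least 100 insertions was called in each library alone. Arntl held 9 regions over 146 kb, of which the region over the start (chr7:113206901-113208100) had 279 and 258 insertions and the next largest, 43.4 kb further in, had 33 and 29. In Cry2, regions 6.04 kb and 10.2 kb inside the gene end held 48 and 37 and 40 and 26 insertions, and in Cry1 a region 23.0 kb inside held 35 and 24.

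Some of the largest regions in these loci belong by position to other genes. For 9 of the 10 loci, an end of at least 1 other protein-coding gene lay within 5 kb. Past the far end of Per2 a region of 132 and 120 insertions lay inside Hes6, a bHLH transcription factor gene, 388 bp from its 5-prime end, and downstream of Cry1 one of 101 and 91 covered the 5-prime end of Mterf2, a mitochondrial transcription termination factor gene. Downstream of Dbp one of 130 and 116 lay at Rpl18, a ribosomal protein gene. The start of Per3 lay 188 bp from that of Gm38529, and the Gm38529 window held 157 and 160 insertions, nearly the counts of Per3.

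**Figure D3:**
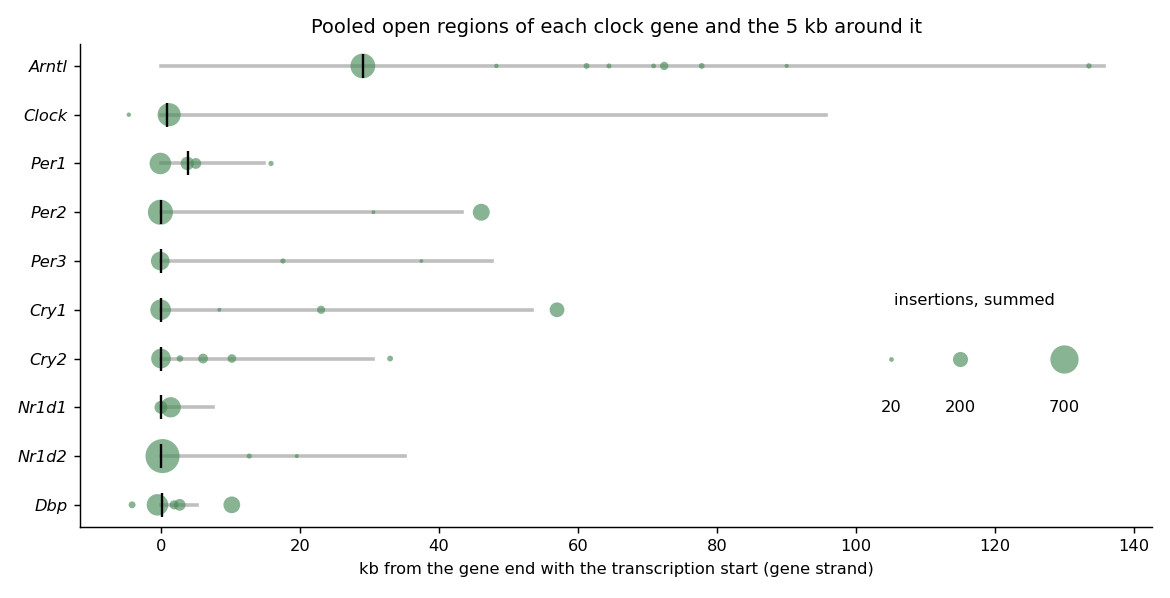
Pooled open regions (green discs, area by summed insertions) by distance in kb from the gene end with the transcription start, drawn along each gene (grey line) with the start used (black tick). Arntl has its large region 29.0 kb inside the outer end, and the large discs past the far ends of Per2, Cry1 and Dbp lie near other genes.

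Over whole loci (gene body with 5 kb either side), insertions per kb set the genes in another order. The Dbp locus, 15.1 kb with several neighbours, had 39.6 wild-type and 37.5 knockout insertions per kb, rank 19 and 21 of 21887. Nr1d1 followed with 25.2 and 21.1, Per1 with 22.8 and 20.8, Nr1d2 with 17.1 and 16.7, Cry2 with 15.6 and 15.1 and Per2 with 14.2 and 13.5. Arntl had 9.39 and 9.34, Cry1 9.19 and 9.06, Per3 8.42 and 8.08 and Clock 4.85 and 5.60. Outside the open regions the Clock locus had 2.71 and 3.26 insertions per kb and the Dbp locus 18.6 and 18.7, again the lowest and the highest of the 10. The share of a locus's insertions that fell into open regions was highest at Nr1d2, at 68.9% and 69.4%, and lowest at Arntl, at 28.4% and 27.2%.

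At the starts, no clock gene differed by 1.5-fold between the libraries. Log2 ratios of knockout over wild type, scaled to autosomal insertions in open regions, ran from -0.12 to 0.34 with a median of 0.03, and 6 of 10 were above 0. Among 6836 genes with at least 100 insertions at a listed start the median was 0.02 and 55.8% were above 0. At 1.5-fold 0.746% of those genes differed and at 2-fold 0%, so 0 of 10 is near the background. By the outer gene ends, 0 of the 8 clock genes with at least 100 insertions differed by 1.5-fold, as 0.768% of all such ends did.

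The intervals at the starts used all reached 0. They were narrowest at Nr1d2 (0.01, -0.21 to 0.22) and Per2 (-0.12, -0.37 to 0.13). Arntl had -0.08 (-0.34 to 0.18), Per3 0.08 (-0.25 to 0.40), Cry2 0.16 (-0.15 to 0.47), Dbp 0.05 (-0.31 to 0.40), Per1 -0.04 (-0.47 to 0.40) and Nr1d1 -0.04 (-0.49 to 0.41). Clock (0.34, -0.00 to 0.68) and Cry1 (0.28, -0.02 to 0.59) had the highest ratios. The upper bounds of both lay past 1.5-fold, a log2 ratio of 0.58, so a difference of that size could not be resolved at this depth. For Clock the choice of start mattered: its second listed start, whose window overlaps the first, held 122 and 152 (0.38, 0.02 to 0.73), wholly above 0, and its outer end held 28 and 23 (-0.22, -1.09 to 0.62). Of all genes with at least 100 insertions at a listed start, 3.15% had an interval wholly on either side of 0.

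For Clock the ratio at the start depended on repeated reads. With every read kept, the window held 151 wild-type and 203 knockout reads, giving 0.54 (0.23 to 0.85). Repeats made up 13.2% of wild-type and 21.7% of knockout reads there. Cry1 had 246 and 280 reads with repeats (0.30, 0.04 to 0.55). Reads without molecular identifiers that repeat a position can be copies of 1 molecule, so intervals from all reads understate the error.

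**Figure D4:**
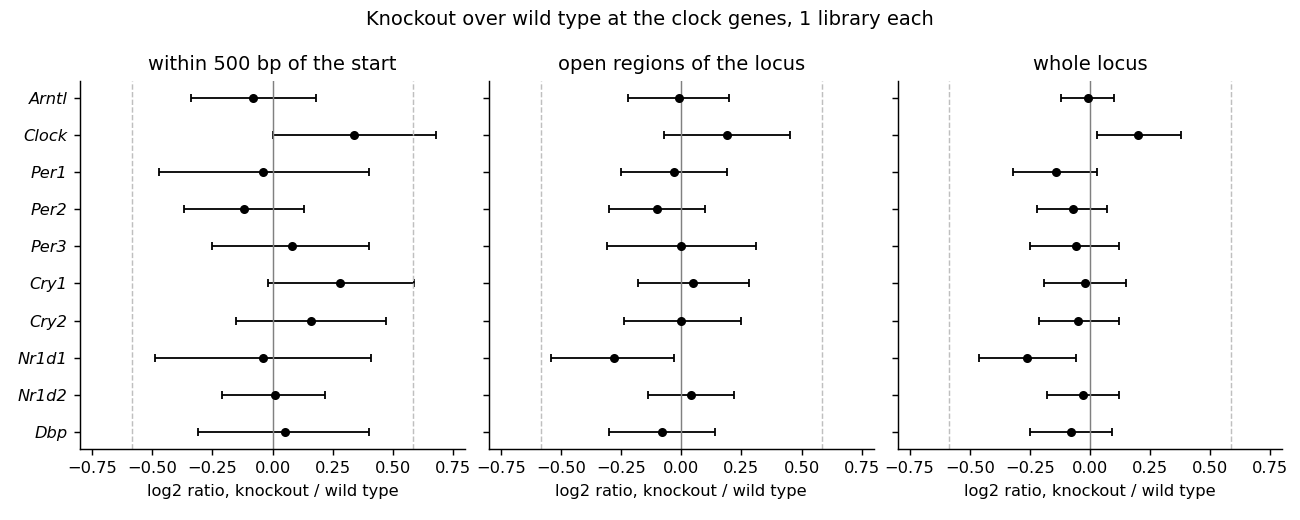
Log2 ratio of knockout over wild type (horizontal axis) for each clock gene within 500 bp of the start, in the open regions of its locus and over the whole locus, with exact 95% intervals as bars and dashed lines at 1.5-fold. Start intervals all reach 0, and over whole loci those of Clock and Nr1d1 do not.

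Over whole loci, Clock and Nr1d1 lay on opposite sides of 0. Here counts were scaled by the autosomal total of each library. Clock had 513 insertions in wild type and 592 in knockout, with a log2 ratio of 0.20 (0.03 to 0.38). Nr1d1 had 440 and 368, with a ratio of -0.26 (-0.46 to -0.06). Intervals wholly off 0 were found for 2 of the 10 clock loci and for 7.00% of 16724 loci with at least 100 insertions (3.11% above 0 and 3.89% below). Neither locus differed by 1.5-fold, as 0.293% of all loci did.

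At Clock the open regions held 232 and 254 insertions, and with scaling to open regions their interval reached 0 (0.19, -0.07 to 0.45). Outside them 281 and 338 insertions gave 0.26 (0.03 to 0.50). With the gene body alone the locus interval reached 0 (0.17, -0.01 to 0.36), as it did with minus strand reads alone (0.13, -0.11 to 0.37).

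At Nr1d1 the knockout count was lower in the open regions. These held 284 and 224 insertions (-0.28, -0.54 to -0.03), and the inner region alone 205 and 157 (-0.32, -0.63 to -0.02). The region over the start held 79 and 67 (-0.18, -0.67 to 0.31), and the rest of the locus 156 and 144 (-0.12, -0.45 to 0.22). Across 8 other settings the interval of both regions together lay below 0 in 6. It reached 0 with plus strand reads alone and with minus strand reads alone. Of the 17 clock regions with at least 100 insertions, only the inner region of Nr1d1 had an interval wholly off 0. Among all 8844 open regions of that depth, 3.51% had an interval wholly on either side of 0, and 1.21% wholly below. The Nr1d1 locus reached 0 when scaled to open regions (-0.20, -0.40 to 0.00) and with plus strand reads alone (-0.18, -0.47 to 0.10).

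The other 8 loci had ratios from -0.14 at Per1 (-0.32 to 0.03) to -0.01 at Arntl (-0.12 to 0.10), and their intervals reached 0. Thus 9 of 10 clock loci were below 0, with a median of -0.05, while the median of all loci was -0.00 and 48.9% were above 0. This count moved with the scaling: scaled to open regions, 5 were below and 5 above. Among all loci, those with 50% or more of their insertions in open regions had a median of -0.03, and 60.2% were below 0. Those with 25% to 50% had -0.00 (50.9% below) and those under 25% had 0.02 (46.2% below). Of the clock loci 6 fall into the first class and 4 into the second. Whether this share bears on the count of clock loci below 0 was not tested.

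**Figure D5:**
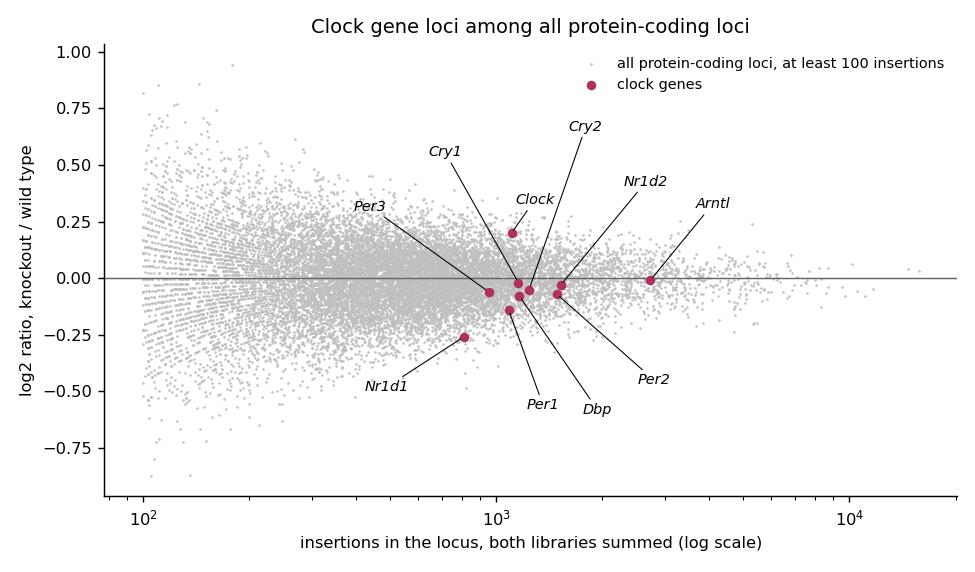
Log2 ratio of knockout over wild type (vertical axis) against summed insertions per locus (horizontal log axis) for 16724 protein-coding loci with at least 100 insertions (grey) and the 10 clock genes (red). The clock loci lie within the grey cloud, with Clock at 0.20 and Nr1d1 at -0.26.

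Single open regions of the clock genes were compared in the same way. None of the 17 with at least 100 insertions differed by 1.5-fold, as 0.905% of all such regions did. A region 37.5 kb inside Per3 held 10 wild-type and 2 knockout insertions (-2.01, -5.49 to -0.03), and one 8.38 kb inside Cry1 held 10 and 3 (-1.53, -4.18 to 0.28). In the other direction, a region 90.0 kb inside Arntl held 4 and 11 (1.41, -0.24 to 3.62) and one 61.2 kb inside held 12 and 18 (0.62, -0.49 to 1.83). Of the 40 regions 3 were called in the wild-type library and not in the knockout library, and 3 the other way round. Over all 36817 regions these shares were 16.4% and 9.35%. These regions were picked after their values were seen, and counts of this size give wide intervals.

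Genes that act with the clock were counted at the gene end with the transcription start. Of 36 such genes (partners of the core loop, kinases and ligases that act on its proteins, and retinal outputs), 25 had at least 50 insertions summed, with a median ratio of -0.04 against 0.02 for the 9186 genes of all that did. The 2 with most insertions were Gsk3b, a kinase of clock proteins, with 446 and 417 (-0.04, -0.23 to 0.16), and Btrc, a ubiquitin ligase adaptor that targets PER proteins, with 220 and 197 (-0.10, -0.38 to 0.18).

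The 2 ratios of the 25 farthest from 0 were those of Bhlhe40, an E-box repressor, with 43 and 25 (-0.71, -1.50 to 0.02), and Vipr2, a receptor for vasoactive intestinal peptide, with 41 and 27 (-0.53, -1.30 to 0.19). Bhlhe40 alone of the 25 was past 1.5-fold, which 2.29% of the 9186 genes were. Both intervals reached 0. The highest ratio of the 25 was that of Adcy1, an adenylyl cyclase gene, with 40 and 55 (0.51, -0.10 to 1.14).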

How the data were processed

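ATAC-seq reads of 1 wild-type and 1 Gabra3 knockout library from retina were used. Per the submitters' processing notes, Trimmomatic 0.33, BWA and bedtools 2.23.0 were used with GRCm38 (mm10); the version of BWA and how duplicates were treated are not given here by any source. The score column the authors deposited is each read's mapping quality, not normalized, and the deposited coordinate columns give its start and end; every read spanned 75 bp. Read 5-prime ends with mapping quality of at least 10 were shifted by 4 bp (plus strand) or -5 bp (minus strand) and counted once per position and strand.

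To call open regions, windows of 200 bp were moved by 50 bp, kept where the Poisson p (threshold 1e-05) was met over both the mean of the genome and that of the surrounding 10000 bp, and merged within 150 bp, with each library thinned to 7635799 insertions. Ratios used a pseudocount of 0.5. The scripts (Python 3.11.15, numpy 2.4.6, scipy 1.17.1) were tested on simulated data. Strand and transcript starts came from a RefSeq promoter table, which gave a strand for 17492 of 21887 genes. Named genes were all members, among other clock-related genes the top 2 by insertions and the top 2 by size of ratio, genes with an end within 5 kb of a member, and Gabra3; Rpl18 and Adcy1 were named after their values were seen. Members and lists were chosen with earlier results of these data known. The listed transcript starts, the peaks near starts, the repeats and 2 locus settings were added after the data were seen.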

Additional observations from a re-analysis of the deposited data

How the results depend on the processing

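No paired analysis was possible because each genotype had 1 library and no test was run. Over 12 other settings each, the median log2 ratio of the clock genes ran from -0.05 to 0.05 at the gene ends (9 genes, without Arntl) and from -0.08 to 0.01 over loci, and over 8 settings from -0.07 to 0.02 in open regions. These settings recount the same reads, so agreement between them does not measure how far another library would differ. Of 308 values of single genes under these settings, 306 lay within the interval of the main setting. The 2 outside were Arntl's locus with plus strand reads alone (-0.12) and with minus strand reads alone (0.10). At the gene ends the main setting was the outer end, and the listed starts used above were 1 of the 12 settings. For Clock the outer end held 28 and 23 insertions, so its interval was wide (-1.09 to 0.62). Its values ran from -0.49 to 0.34, below 0 in 10 of 12 settings. Across the 12 locus settings the Clock interval stayed above 0 in 10 and the Nr1d1 interval below 0 in 9. The interval of the Per1 locus lay below 0 in 3, with all reads (-0.19, -0.35 to -0.04), with minus strand reads (-0.28, -0.53 to -0.03) and without the ends of other genes (-0.19, -0.37 to -0.01). The number of open regions was 30 to 41, against 40. The share of genes past 2-fold at the gene end was 0% with at least 100 insertions, 0.0435% with at least 50, and 0.768% at 1.5-fold. With autosomal totals as the scale for starts and regions, each log2 ratio was lower by 0.06. Counts of under 50, as in 18 of the 40 open regions, leave intervals too wide to show a 1.5-fold difference.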

Other observations

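Reads that repeated a position and strand took a larger share at the clock starts than over all reads. Over all reads at a mapping quality of at least 10 they made up 11.0% in the wild-type and 9.41% in the knockout library. At the start of Per2 the shares were 46.4% and 48.9%, at Nr1d2 46.2% and 42.2%, at Arntl 40.7% and 35.7% and at Cry2 41.0% and 29.8%. The 1631 starts of all genes with at least 300 insertions had 37.7% and 35.3%. With all reads kept, Nr1d2 moved from rank 3 to rank 8 among listed starts and Per2 from 62 to 37. Whether repeats were copies of 1 molecule or separate insertions was not tested.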
